A study of Mus musculus with 16 samples.

Results

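The fatty acid binding proteins are a family of small cytosolic lipid carriers, and the chromatin around the 9 mouse genes that bear the name (Fabp1, Fabp2, Fabp3, Fabp4, Fabp5, Fabp6, Fabp7, Fabp9 and Fabp12) was examined in 16 ATAC-seq libraries. The members were taken by name, whatever their values, from the 22028 protein-coding genes of GENCODE vM21 on GRCm38. ATAC-seq uses the Tn5 transposase to insert adapters into open DNA, so that a peak marks an accessible stretch. Heart, lung, kidney, spleen, muscle, liver and the white and brown fat depots were taken from adult male C57BL/6 mice that were either fed, with free access to chow, or had fasted for a day. Tissue powder was pooled equally over the mice of a state before nuclei were isolated, so every tissue has 1 fed and 1 fasting library and there are no replicates. The tissues of a state came from the same mice, and nothing else is said to differ between the states. In pooled tissue, fewer cells of a type and less open chromatin per cell cannot be told apart.

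Each member folds into a barrel that holds a long-chain fatty acid or, for Fabp6, a bile acid. The proteins ferry these ligands from the plasma membrane to the endoplasmic reticulum, mitochondria, peroxisomes and nucleus, where some hand them to the peroxisome proliferator-activated receptors (PPARs). The members are named for where they are known best. Fabp1 is the liver form and Fabp2 the intestinal form, Fabp3 serves heart and muscle, Fabp4 (aP2) is the adipocyte form, Fabp5 the epidermal form, and Fabp7 the brain form, while Fabp9 and Fabp12 are known from testis.

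Each deposited list held between 298996 and 299529 summits. A summit was placed by its percentile of significance in its own list, from near 0 for the weakest listed summit to 100 for the strongest, and 0 stands for no summit. The weakest listed summit differed between lists, with the authors' −log10 p from 2.48 in fasting to 7.11 in fed brown adipose. No summit therefore means none above the floor of that list, and not closed chromatin. The value of a gene is its strongest summit within 3 kb of an annotated start, or within its body extended by 10 kb. Between 70.41% and 78.27% of protein-coding genes had a summit within 3 kb in a library, against 3 to 8 of the 9 members. Among genes with such a summit the median value ran from 92.29 in fed liver to 95.55 in fasting muscle. A value well below these is weak for a gene start. Depth is not given, but the background at which tags fell by chance, which scales with it, ran from 2.80 tags in fed liver to 12.8 in fed brown adipose. Markers were highest where the labels place them for liver (5 hepatocyte genes averaged 93.1 fed and 93.99 fasting), brown and white adipose (5 adipocyte genes, 93.5 and 93.9, then 89.5 and 91.6) and kidney (5 proximal tubule genes, 86.2 and 81.7). The 5 muscle and cardiomyocyte genes averaged 84.1 and 75.3 in heart but 59.3 and 57.7 in muscle, below their 65.5 and 62.7 in white adipose. Adipocyte genes also averaged 69.1 and 73.4 in liver.

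The start regions of the members differ in letters before any tissue is considered, so those on which the results turn are shown first. RefSeq windows (GRCm38, 250 bases before to 50 after the RefSeq start) were found for 5 of the 9 members, Fabp1, Fabp2, Fabp3, Fabp6 and Fabp7. Capitals mark matches, on either strand, to the TATA box TATAAA, to the C/EBP motif TTGCNNAA, or to a DR1 element, the PPAR type of site, written as AGGTCA, 1 base, AGGTCA with up to 2 mismatches. The MEF2 motif, and an HNF1 palindrome of GTTAAT, 1 base, ATTAAC with up to 2 mismatches, were searched too and had no match in these stretches. None of the capital stretches overlap.
Fabp1 start, chr6:71199629-71199928, plus strand: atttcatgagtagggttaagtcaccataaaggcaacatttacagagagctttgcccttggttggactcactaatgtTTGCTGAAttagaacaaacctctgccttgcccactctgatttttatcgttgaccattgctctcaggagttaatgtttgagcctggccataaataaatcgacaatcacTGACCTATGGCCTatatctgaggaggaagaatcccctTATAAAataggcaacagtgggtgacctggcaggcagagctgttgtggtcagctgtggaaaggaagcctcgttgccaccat
Fabp2 start, chr3:122894822-122895121, plus strand: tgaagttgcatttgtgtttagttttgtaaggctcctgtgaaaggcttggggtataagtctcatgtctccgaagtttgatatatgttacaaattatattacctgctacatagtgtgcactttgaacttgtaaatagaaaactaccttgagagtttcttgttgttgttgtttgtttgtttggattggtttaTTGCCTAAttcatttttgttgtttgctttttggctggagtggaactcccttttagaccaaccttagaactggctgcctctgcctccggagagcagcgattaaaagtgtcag
Fabp3 start, chr4:130308488-130308787, plus strand: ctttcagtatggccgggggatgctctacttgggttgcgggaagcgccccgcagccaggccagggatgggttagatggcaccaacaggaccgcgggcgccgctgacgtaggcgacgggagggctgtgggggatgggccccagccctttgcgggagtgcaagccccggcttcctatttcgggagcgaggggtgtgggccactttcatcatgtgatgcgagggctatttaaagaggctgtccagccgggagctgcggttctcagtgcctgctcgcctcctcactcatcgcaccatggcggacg
Fabp7 start, chr10:57784673-57784972, plus strand: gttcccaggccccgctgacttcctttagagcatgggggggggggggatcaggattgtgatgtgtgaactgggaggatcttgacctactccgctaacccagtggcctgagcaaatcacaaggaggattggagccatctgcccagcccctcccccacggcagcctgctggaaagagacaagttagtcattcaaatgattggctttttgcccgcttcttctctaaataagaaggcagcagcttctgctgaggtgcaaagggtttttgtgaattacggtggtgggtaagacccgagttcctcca

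The Fabp1 window held 3 matches. A TATA box lay 30 bases before the RefSeq start, which itself lies 52 bp inside the GENCODE start from which distances are measured below, so that the box is within the GENCODE transcript. A DR1 with 1 mismatch lay at chr6:71199812-71199824 on the opposite strand, and a C/EBP match lay at chr6:71199705-71199712. The Fabp2 window held a C/EBP match 61 bases before the start. The Fabp3 and Fabp7 windows held none of these motifs, and the Fabp3 window was rich in CpG, with 22 CpG and 65.0% GC against 3 CpG and 45.0% in Fabp1 and 3 CpG and 38.7% in Fabp2. Over 27018 RefSeq promoters of the same length, 14.2% held the TATA box, 10.8% the C/EBP motif, 3.8% a DR1, 1.4% the HNF1 palindrome and 0.6% the MEF2 motif, with a median of 7 CpG and 52.7% GC. A match is a string of letters and not a bound site.

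A pair of tests was run on every gene with a summit, with Benjamini-Hochberg (BH) adjustment over all of them. The first asked whether a gene has a tissue pattern that both states share: an exact one-sided permutation test over all 40320 pairings of the 8 fed with the 8 fasting libraries compared the mean absolute difference within a tissue with that between tissues. At 3 kb, 9488 of 19719 genes passed at adjusted p under 0.05, or 48.1% (59.8% before adjustment), and 4 of the 8 members with a summit passed, namely Fabp1, Fabp3, Fabp4 and Fabp7. In the extended gene body 10133 of 20740 genes passed, or 48.9% (61.3% before adjustment), and 5 of 9 members did, namely Fabp1, Fabp2, Fabp3, Fabp4 and Fabp12. The extended-body call of Fabp2 was lost in 9 of 15 alternatives (BH-adjusted p up to 0.167 in the exact permutation test) and that of Fabp4 in 8 of 15 (up to 0.201). The members' shares were near those of all genes. The share of all genes itself fell to 29.0% at 3 kb after thinning to one background level, and to 30.2%, 29.8% and 30.3% without muscle, spleen or kidney. A gene open in 1 tissue alone cannot reach a p below 0.125 in this test.

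**Figure D1:**
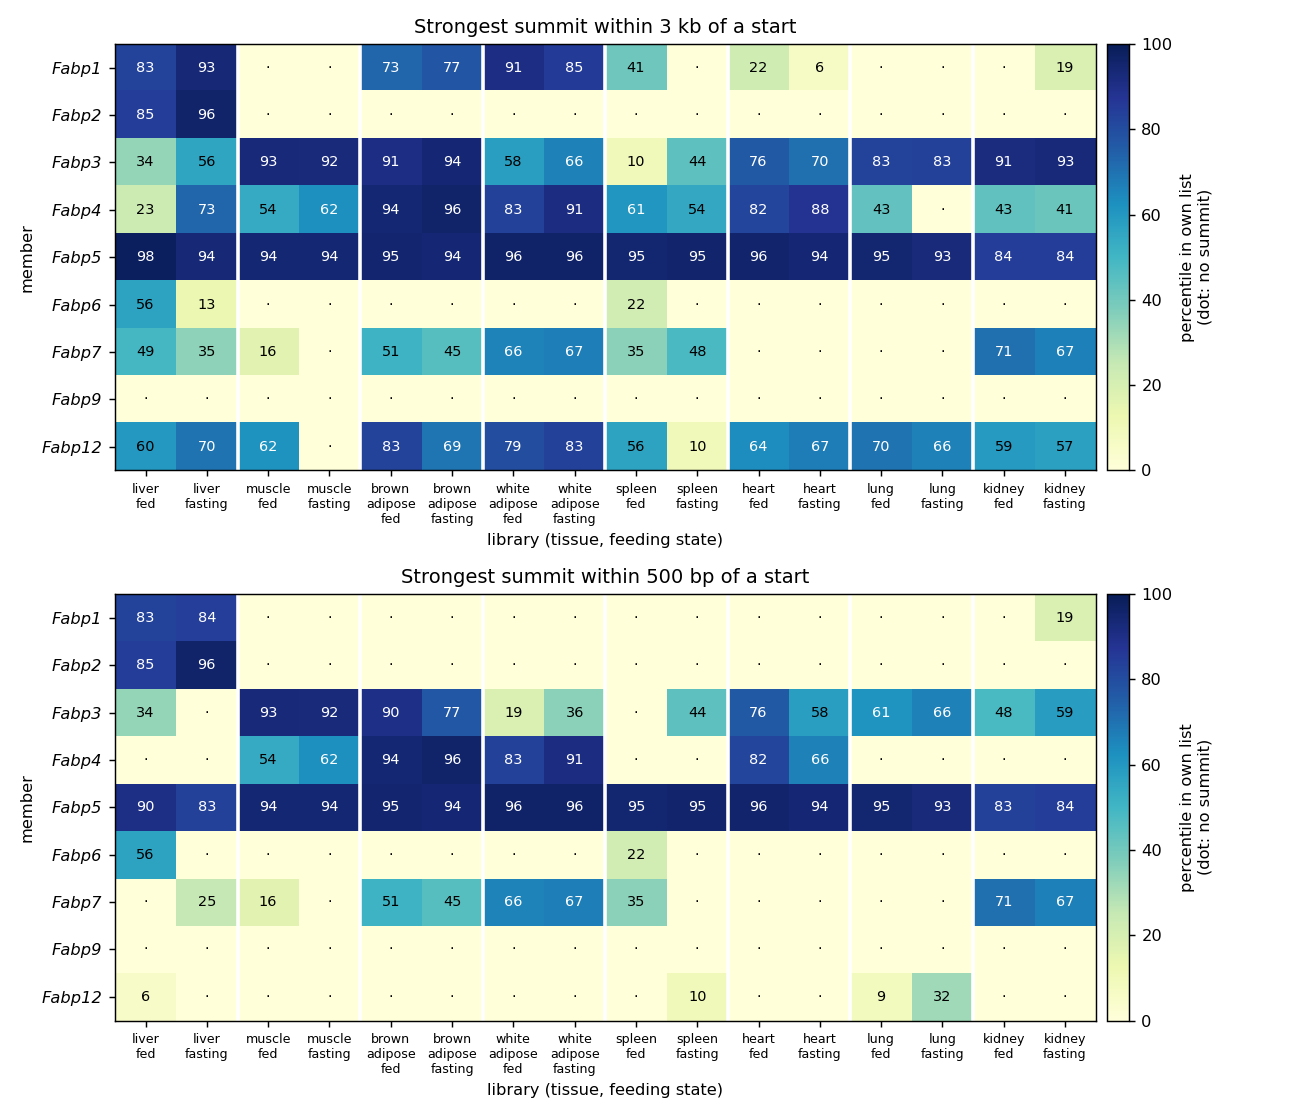
Percentile of the strongest summit of each member within 3 kb (top) and within 500 bp (bottom) of an annotated start, for the fed and the fasting library of each of 8 tissues; a dot marks no summit and darker cells are stronger summits. Fabp5 is dark in all 16 columns, Fabp2 in the 2 liver columns alone and Fabp9 in none, while Fabp1 and Fabp4 each lose cells when the window narrows.

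Among the members known from liver and gut, Fabp1, which carries fatty acids in hepatocytes and enterocytes, had its highest values within 3 kb in liver and both adipose tissues. Within 3 kb its fed and fasting values were 82.6 and 93.5 for liver, 72.7 and 77.3 for brown fat, and 90.9 and 85.5 for white fat. The median gene with such a summit stood at 92.29 and 92.84 in liver, 95.44 and 94.85 in brown fat, and 95.49 and 95.35 in white fat. The brown fat values were thus weak for a gene start. In spleen it was at 41.0 fed with no summit in fasting, in heart at 22.4 and 6.15, and in kidney it had no summit fed and stood at 19.1 in fasting. Muscle and lung had no summit. The states of a tissue differed by 12.1 points on average against 41.7 over all pairings (exact permutation p = 0.00982, BH-adjusted p = 0.0294), although leaving out any 1 of liver, muscle, brown adipose, white adipose or lung took the adjusted p to between 0.0537 and 0.0681, and ranking by fold enrichment to 0.0647.

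The tissues did not use the same piece of DNA at Fabp1 (chr6:71199827-71205023, plus strand). Summits within 200 bp of the strongest one were joined across libraries into elements. The element at the start itself, 73 bp inside the 5′ UTR at its strongest, was open in liver at 82.6 fed and 84.2 fasting, in fasting kidney at 19.1 and in no other library. The fed liver summit of this element, chr6:71199709, fell on the C/EBP letters shown above, and the fasting one, chr6:71199900, lay on the other side of the DR1. In brown and white adipose the summit lay instead 2037 bp upstream, in an intergenic element that liver shared at 78.03 fed and 93.5 fasting and no other tissue did. With the window narrowed to 500 bp the adipose values went to 0, which left liver and fasting kidney, and the exact permutation test could then go no lower than the p of 0.125 it gave.

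The upstream element is shown as 300 bases around its summit, because it carries the adipose signal of a gene named for liver.
Fabp1 upstream element, chr6:71197640-71197939, plus strand of the genome: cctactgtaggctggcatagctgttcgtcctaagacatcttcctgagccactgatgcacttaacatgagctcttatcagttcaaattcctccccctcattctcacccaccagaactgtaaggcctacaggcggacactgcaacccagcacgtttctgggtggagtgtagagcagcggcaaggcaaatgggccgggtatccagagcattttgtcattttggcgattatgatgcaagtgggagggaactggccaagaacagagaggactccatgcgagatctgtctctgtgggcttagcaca
It held none of the motifs searched. Among 16757 stretches of this length around the fed liver summits of chromosome 6, 6.7% held a DR1, 13% a C/EBP match, 12.2% a TATA box, 2.2% the HNF1 palindrome and 0.4% the MEF2 motif. Beyond 3 kb, the strongest element of Fabp1, 3595 bp upstream, was open in liver at 92.05 and 93.1, in brown fat at 69.4 and 70.5, in white fat at 19.7 and 66.6, and in lung at 51.2 and 59.7.

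The liver elements of Fabp1 differed unequally between the fed and the fasting library. Background hardly differed between the liver libraries (2.80 tags fed, 2.82 fasting), but the libraries differed in signal above it: 46.4% of fed and 36.6% of fasting summits lay at the background level, so ratios are read against those of other genes. At the upstream element 45 tags in fed liver stood against 123 in fasting liver, a ratio of 2.71 per background tag (95% counting interval 1.91 to 3.91). The start element went from 58 to 91 tags, a ratio of 1.56 (1.11 to 2.20). The median ratio over the strongest start summits of 16113 genes in liver was 1.79, with 95% of genes between 0.73 and 2.98, and both Fabp1 values lay inside that range. The range was taken from start summits, and it is no reference for elements far from a start. Toward the 3′ end the order turned: at an intronic element 4769 bp past the start 65 fed tags stood against 38 fasting tags (ratio 0.58, 0.38 to 0.88), and the elements 5506, 5759 and 6083 bp past it had ratios of 0.67, 0.61 and 0.64. Their fold enrichment over the local background moved less, from 2.75 to 2.03 at the first and from 3.55 to 3.31, 2.48 to 2.13 and 2.59 to 2.30 at the others. These ratios rest on 1 library per state, and their intervals cover counting error only.

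Fabp2, which carries fatty acids in enterocytes, was open at its start in liver and nowhere else. Within 3 kb the fed liver value was 84.5 and the fasting one 95.9, and the other 14 libraries had no summit. Its gene lies at chr3:122895072-122899506 on the plus strand, and the element sits 459 bp downstream of the start in its intron. There, 26 tags in fed liver stood against 87 in fasting liver, a ratio of 3.32 (2.12 to 5.37). The ratio lay above the range that holds 95% of genes (0.73 to 2.98), but its interval reached into that range. By percentile the rise of 11.37 points was inside the central 95% of genes in liver (-41.27 to 34.97). Of the other elements with a fed and a fasting liver summit, a pair had ratios of like size, 180 bp downstream with 12 and 36 tags (ratio 2.98, 1.51 to 6.29) and 7191 bp upstream with 15 and 51 tags (ratio 3.38, 1.87 to 6.46). Those 7411, 6591 and 6329 bp upstream had lower ratios, 1.61 (0.83 to 3.22), 1.45 (0.97 to 2.20) and 0.82 (0.42 to 1.57). The enterocyte list averaged 18.7 and 26.2 over the fed and fasting liver libraries, below its 39.6 and 48.9 in spleen. Of its genes, Alpi stood at 93.35 and 73.36 in liver, and at 90.34 and 88.69 in spleen. Cdx1 and Cdx2 had a liver summit in fasting alone, at 12.61 and 45.12, and Vil1 had none in liver. Sis, the sucrase gene, had no summit within 3 kb in any library. The part of gut cells in the Fabp2 values was not tested.

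The strongest element of Fabp2 outside 3 kb, 9212 bp downstream and in an intron of 4933405D12Rik, was in all 16 libraries. It stood at 96.8 and 87.9 in fed and fasting liver and at 92.3 and 92.98 in spleen, and lowest in fed heart at 22.4. In liver it had 49 tags fed and 47 fasting, a ratio of 0.95 (0.62 to 1.45). The intervals at the start and at this element do not overlap.

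Fabp6, the ileal bile acid carrier, was weak everywhere. Its summits within 3 kb (gene at chr11:43596049-43601540, minus strand) were at 56.3 in fed liver, 12.6 in fasting liver and 21.5 in fed spleen, with no summit in the other 13 libraries. The fed liver and fed spleen summits lay 241 bp upstream of the start, and the fasting liver one lay 1470 bp inside the gene. The strongest element of the extended body, 15059 bp past the start, lay in the UTR of a neighbour, Ccnjl, and the extended body had no called pattern (exact permutation, BH-adjusted p = 0.364).

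Fabp3, which supplies fatty acids to oxidising muscle, had a called tissue pattern at 3 kb (exact permutation p = 2.98e-04, BH-adjusted p = 0.00832), which was lost when summits were ranked by fold enrichment (0.0679) and at 500 bp (0.0587). Muscle stood at 92.6 fed and 92.2 fasting, brown adipose at 90.7 and 93.9, kidney at 91.5 and 92.6, lung at 82.6 and 83.4, and heart at 76.4 and 70.4. White adipose followed at 58.0 and 66.05, liver at 34.0 and 55.7, and spleen at 9.67 and 43.8. Muscle, brown adipose and kidney were within the spread between their own states and cannot be ordered, and heart, the organ the protein is named for, stood below lung.

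Distance from the start set the tissues apart at Fabp3 (chr4:130308595-130315463, plus strand). At the start element, 45 bp inside the gene, muscle was at 92.6 and 92.2, brown fat at 79.4 and 62.55, heart at 76.4 and 58.05, lung at 48.9 and 59.9, and kidney at 45.5 and 37.6. The element 537 bp upstream was instead strongest in kidney, at 91.5 and 92.6, and in lung, at 82.6 and 83.4, with muscle at 65.6 and 82.98. Another element, 1671 bp upstream, was at 90.7 and 93.9 in brown adipose, 85.7 and 84.4 in muscle and 82.9 and 86.6 in kidney, with no summit in lung. Kidney and lung therefore took their 3 kb values from DNA upstream of the start and muscle took its from the start. The start element overlaps Gm10570, a short gene on the other strand, and reads at an open start do not tell which gene they serve. The RefSeq start lay 143 bp inside the GENCODE start used for these distances.

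The strongest element of Fabp3 beyond 3 kb lay 9036 bp upstream, in a block of 5 neighbouring elements between 8352 and 9641 bp upstream.
Fabp3 distal element, chr4:130299409-130299708, plus strand of the genome: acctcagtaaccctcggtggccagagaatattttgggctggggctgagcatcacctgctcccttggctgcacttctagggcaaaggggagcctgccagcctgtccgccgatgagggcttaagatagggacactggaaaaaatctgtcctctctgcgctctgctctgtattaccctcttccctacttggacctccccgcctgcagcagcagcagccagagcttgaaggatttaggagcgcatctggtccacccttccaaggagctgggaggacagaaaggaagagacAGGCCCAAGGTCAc
Capitals again mark a match, here a DR1 with 2 mismatches at chr4:130299695-130299707, 136 bp past the summit. Of 19077 stretches of this length around fed muscle summits of chromosome 4, 5.0% held a DR1, 10.7% a C/EBP match, 10.7% a TATA box, 1.3% the MEF2 motif and 0.6% the HNF1 palindrome. The element was at 96.6 fed and 93.9 fasting in muscle, 93.7 and 94.2 in brown fat, 81.9 and 84.6 in heart, 35.0 and 39.07 in white fat and 51.4 in fasting kidney. Liver, spleen and lung had no summit there in either state. Muscle, brown adipose and heart had the highest values there in both states.

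**Figure D2:**
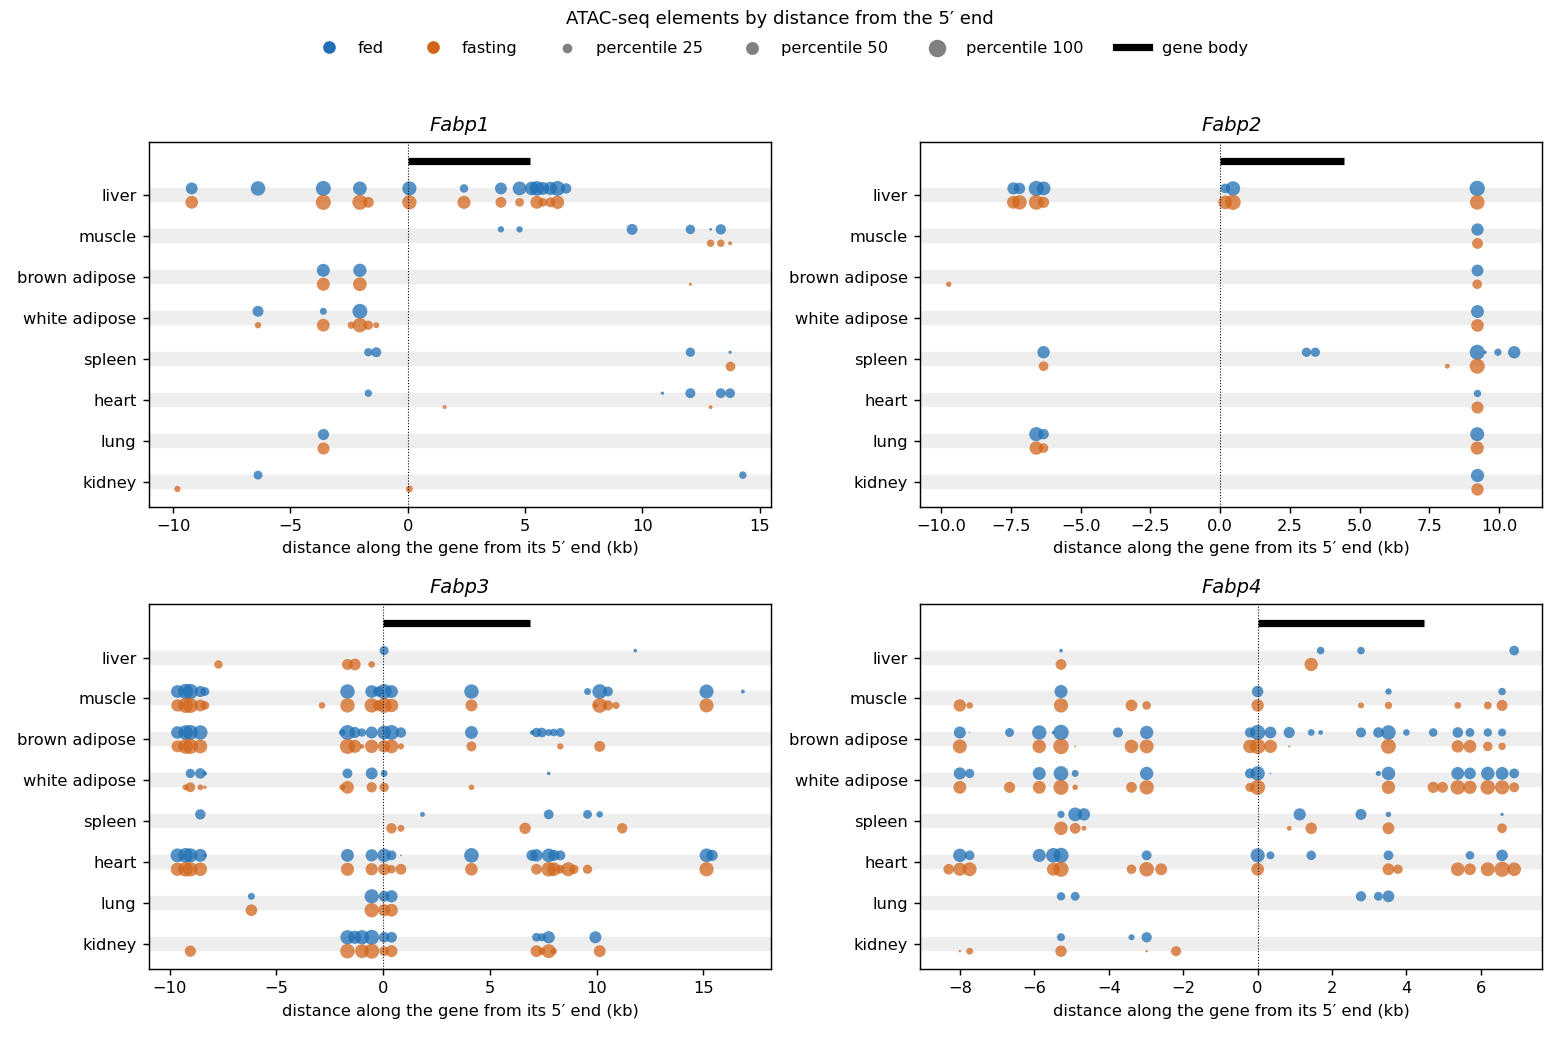
Elements around Fabp1, Fabp2, Fabp3 and Fabp4 by distance along the gene from its 5′ end (kb), one row per tissue, with the fed library above and the fasting library below; the area of a point grows with its percentile and the black bar is the gene body. The Fabp2 start carries points in liver only, the Fabp4 start carries them in muscle, both adipose tissues and heart, and adipose tissue has no point at the Fabp1 start.

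In brown adipose the elements of Fabp3 differed in their fasting to fed ratio. The fed library had a background of 12.8 tags and the fasting one 6.76, and the median gene had a fasting to fed ratio of 0.55 per background tag (95% of genes from 0.33 to 0.84). The start element had 515 fed and 75 fasting tags, a ratio of 0.28 (0.21 to 0.35), and an intronic element 392 bp inside had 703 and 101, a ratio of 0.27 (0.22 to 0.33). Both ratios were below the range of 95% of genes, though their intervals reached its lower end. That range, however, takes the highest count of a gene within 3 kb in each state, at whichever element it lies. Among the elements given here, these counts were 703 fed tags at 392 bp inside and 191 fasting tags at 1671 bp upstream. A single element and the range are therefore not like measures. The intronic elements 835 and 4139 bp inside had ratios of 0.33 (0.24 to 0.44) and 0.25 (0.18 to 0.33). Upstream, the ratios at 537, 1325, 1671, 9036 and 9259 bp were 0.50, 0.53, 0.53, 0.49 and 0.48, and those at 992, 8568 and 9641 bp were 0.38, 0.34 and 0.36. The intervals of the lower upstream elements overlapped those inside the gene. In muscle the start had the highest count of these elements within 3 kb in both states, with a ratio of 0.99 (0.85 to 1.16). The median gene there had 0.98, with 95% of genes from 0.67 to 1.5. The element 537 bp upstream had 1.58 (1.25 to 2.0) and the one 4139 bp inside had 0.56 (0.45 to 0.70). Neither is a like measure to that range.

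Fabp4, the adipocyte carrier that also marks capillary endothelium and macrophages, was strongest in brown adipose. Within 3 kb its fed and fasting values were 94.2 and 96.02 for brown fat, 83.4 and 91.2 for white fat, 81.96 and 87.7 for heart, 53.8 and 62.5 for muscle, and 60.9 and 54.4 for spleen. Kidney was at 43.4 and 41.4, liver at 23.4 and 72.9, and lung at 43.1 with no summit in fasting. The 3 kb pattern passed (exact permutation p = 0.0144, BH-adjusted p = 0.0367), but it was lost when summits were ranked by fold enrichment instead (BH-adjusted p = 0.276), when tags were thinned to one background level (0.0732), or without any 1 of muscle, brown adipose, white adipose, spleen, heart or kidney (0.0618 to 0.0843).

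The start of Fabp4 gave a cleaner pattern than the window around it. The gene lies at chr3:10204088-10208576 on the minus strand. The element at the start, 3 bp from it in the UTR, was open in 8 libraries: brown adipose at 94.2 and 96.02, white adipose at 83.4 and 91.2, heart at 81.96 and 66.3, and muscle at 53.8 and 62.5. Both libraries of liver, spleen, lung and kidney had none. Within 500 bp the states of a tissue were 39.5 points closer than random pairings (exact permutation p = 5.95e-04, BH-adjusted p = 0.00949), with the window chosen after the summits near the member starts were seen.

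The low and changeable values of Fabp4 in the other 4 tissues came from the gene body and from farther upstream. The rise from 23.4 to 72.9 in liver was between a fed summit 1679 bp inside the gene with 11 tags and a fasting summit 1426 bp inside with 26 tags. The lung value of 43.1 lay 2765 bp inside the gene, and the kidney values lay 2982 and 2192 bp upstream. The spleen values lay 1116 and 1426 bp inside, so none of these lay within 500 bp of the start. The fasting heart value of 87.7 also came from 2982 bp upstream.

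The strongest element of Fabp4 beyond 3 kb lay 5286 bp upstream, and was present in 15 of 16 libraries. An enhancer active in fat cells is known at about this place upstream of the gene. The element was at 97.9 and 98.3 in brown adipose, 93.7 and 93.9 in heart, 88.09 and 92.4 in white adipose, and 69.9 and 82.6 in muscle. Spleen was at 21.5 and 74.5, kidney at 26.4 and 53.8, liver at 5.51 and 47.4, and lung at 28.6 fed with no summit in fasting. The 4 tissues with an open start were thus the highest here, each above the others in both states but for fed muscle, at 69.9, beside fasting spleen. In muscle 41 fed and 132 fasting tags gave a ratio of 1.95 (1.36 to 2.84). Endothelial markers averaged 59.2 fed and 75.8 fasting over the muscle libraries and macrophage markers 15.1 and 25.55, and their part in this ratio was not tested. Fabp4 had a start summit in heart and none in lung. The weakest listed summit had a −log10 p of 2.76 fed and 3.29 fasting in heart, but 5.13 and 4.77 in lung. Endothelial markers averaged 90.7 and 90.6 in heart and 87.9 and 86.99 in lung. Adipocyte markers averaged 43.4 and 45.8 in heart and 51.6 and 51.8 in lung. The part of endothelial or fat cells in the heart value was not tested.

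In white adipose the Fabp4 start had a fasting to fed ratio above that of the median gene. The fed library had a background of 10.02 tags and the fasting one 5.87, and the median gene had a ratio of 0.77 (95% of genes from 0.45 to 1.32). That median was taken from start summits, and it is no reference for elements far from a start. The start went from 203 to 155 tags, a ratio of 1.30 (1.05 to 1.61), while its fold enrichment over the local background moved from 3.77 to 4.16. The elements on the far side of the gene, 6560, 6175 and 5368 bp past the start, had ratios of 1.37 (1.07 to 1.74), 1.39 (1.11 to 1.73) and 1.48 (1.18 to 1.86). Their folds moved from 2.84 to 2.91, 3.04 to 3.26 and 2.7 to 3.11. Others there had 1.29 (1.0 to 1.66), between 6175 and 5368 bp, and 1.14 (0.85 to 1.54), beyond 6560 bp. Those 202, 4905, 5871 and 8007 bp upstream had 0.98, 0.99, 0.94 and 1.0. The strongest upstream element beyond 3 kb had 1.19 (0.94 to 1.51), and one between 202 and 4905 bp upstream had 1.21 (0.94 to 1.56). Intervals on either side of the gene overlapped. The element 6560 bp past the start also stood at 25 fed and 83 fasting tags in heart, a ratio of 2.80 (1.77 to 4.57). In brown adipose the start ratio was 0.56 (0.48 to 0.64) against a median of 0.55. Over the white adipose libraries macrophage markers averaged 40.3 fed and 62.6 fasting, and over those of heart 25.45 and 61.1, and their part in these ratios was not tested.

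**Figure D3:**
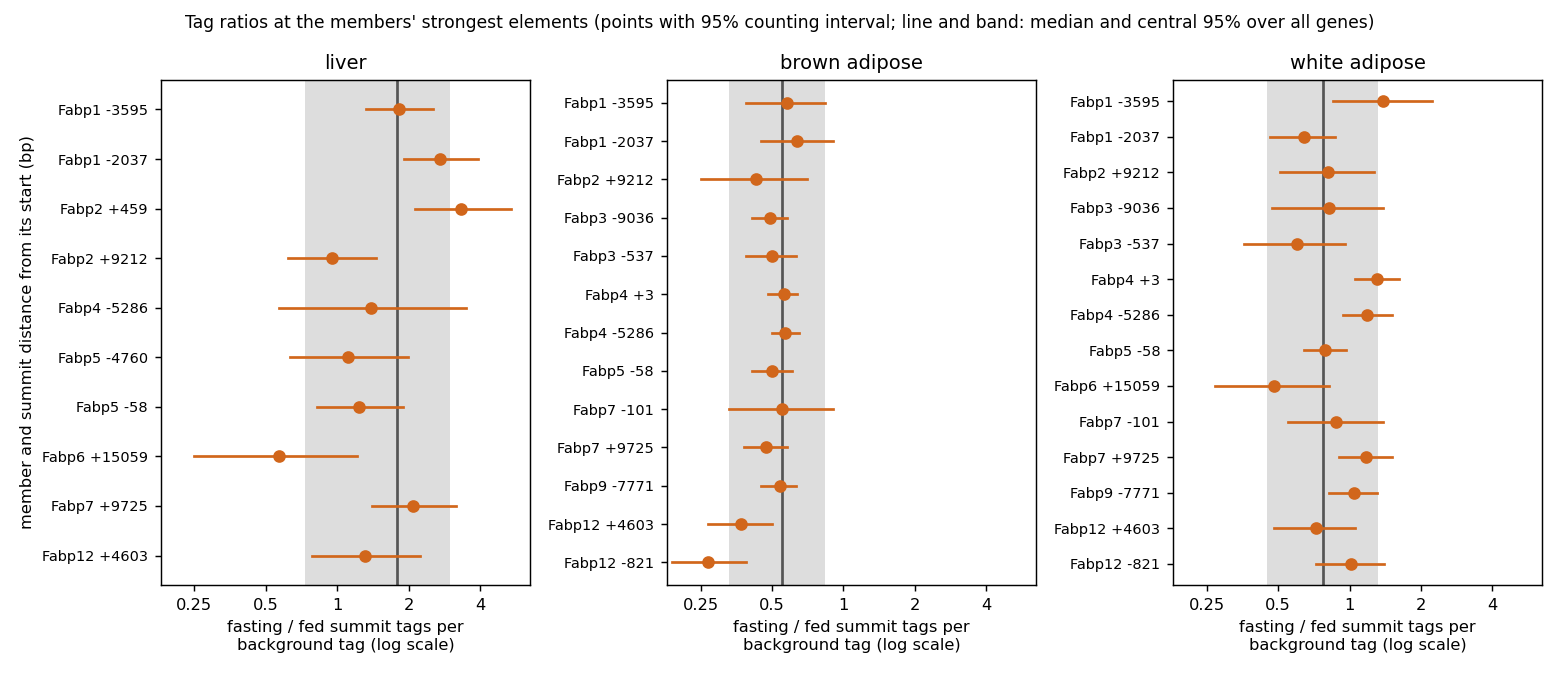
Ratio of fasting to fed summit tags per background tag (log scale) at the strongest element within 3 kb and the strongest one elsewhere of each member, where both states had a summit within 200 bp of each other, in liver, brown adipose and white adipose; bars are 95% counting intervals, and the line and band give the median and the central 95% of the strongest start summits of all genes. The point of Fabp2 at 459 bp (3.32) lies above the band in liver, and that of Fabp12 at 821 bp upstream (0.27) lies below it in brown adipose. The intervals of both reach into the band.

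Fabp5, the epidermal carrier found in many cell types, was open in every library. Its value within 3 kb ran from 84.4 in kidney to 98.1 in fed liver, and the states of a tissue differed by 1.25 points on average. The gene (chr3:10012548-10016607, plus strand) had 2 elements present in all 16 libraries, 58 bp upstream of the start and 2923 bp upstream. At the start the lowest values were 83.5 in fed kidney and fasting liver, and 84.5 in fasting kidney, and the highest was 96.4 in fasting white adipose. In liver the upstream element exceeded the start, at 98.1 and 94.15 against 90.4 and 83.5. In kidney the 2 were close, at 84.4 and 83.2 upstream, and in the other 6 tissues the start was higher in both states. The tissue pattern missed the threshold at 3 kb (exact permutation p = 0.031, BH-adjusted p = 0.0596) and passed it at 500 bp (BH-adjusted p = 0.0315). Across all genes 61.19% had a summit within 3 kb in all 16 libraries, so a gene open everywhere was the usual case, and among the members Fabp3 and Fabp5 were such genes.

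Fabp7, the brain carrier of glia, had summits near its start in kidney and adipose, but weak ones. The median gene with a summit within 3 kb stood at 94.89 in fed kidney, 95.49 in fed white fat and 95.44 in fed brown fat. Its summits within 3 kb (chr10:57784881-57788450, plus strand) had fed and fasting values of 70.56 and 66.6 for kidney, 65.9 and 67.1 for white fat, 51.01 and 45.35 for brown fat, 48.98 and 34.97 for liver, and 35.5 and 47.7 for spleen. Fed muscle was at 16.4, and fasting muscle, heart and lung had none. The pattern passed (exact permutation p = 0.00179, BH-adjusted p = 0.0129). The element 101 bp upstream carried the kidney and adipose values, while the fed liver and fasting spleen values lay 2699 bp upstream. In kidney, 54 fed and 44 fasting tags stood there, a ratio of 0.82 (0.54 to 1.24). The strongest element of the extended body, 9725 bp past the start and present in all 16 libraries, was the start of a neighbour, Smpdl3a, and is not read here as Fabp7.

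The testis members lay with Fabp4 and Fabp5 in a cluster on chromosome 3. Fabp9 (chr3:10193621-10197283, minus strand) had no summit within 3 kb of a start in any library, as did 10.48% of all protein-coding genes, and entered no test at 3 kb. Its extended body overlapped that of Fabp4, and its strongest element there, 7771 bp upstream of its own start, lay inside Fabp4. Of the elements near Fabp9 itself, one 4773 bp past its start, beyond its end, was at 81.2 in fed and 19.1 in fasting kidney, with 75 and 18 tags (ratio 0.24, 0.14 to 0.41), at 72.7 in fed spleen and at 42.7 in fed heart. The testis germ cell list averaged 0.0 in both kidney states.

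Fabp12 (chr3:10244209-10301183, minus strand) spans far more DNA than the others, 56975 bp against 3570 to 6869 bp, and had 85 elements, of which 24 were in 1 library. Within 3 kb it ranged from no summit in fasting muscle to 83.2 in fasting white adipose, was at 9.65 in fasting spleen, and had no called pattern (exact permutation p = 0.0317, BH-adjusted p = 0.0609). Hardly any of this came from the starts: within 500 bp it had summits in 4 libraries, at 5.51 to 31.9. Its strongest element within 3 kb, 821 bp upstream, was at 83.1 and 69.2 in brown adipose, 79.4 and 83.2 in white adipose, 69.8 and 66.3 in lung, 59.3 and 57.2 in kidney and 62.8 in fasting heart. In brown adipose it had 250 and 36 tags, a ratio of 0.27 (0.19 to 0.39).

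Within the long gene body of Fabp12 the tissues separated more sharply (extended body: exact permutation p = 2.98e-04, BH-adjusted p = 0.00883). The element strongest on average, 4603 bp inside a start, was in all 16 libraries at 61.7 to 90.9. An intronic element 10997 bp inside, singled out after its values were seen, stood at 96.1 fed and 96.8 fasting in brown adipose, 90.9 and 89.01 in white adipose, 18.97 in fasting spleen and nowhere else. Another, 6544 bp inside and also singled out, was at 95.7 and 91.97 in liver, 82.2 and 70.55 in white adipose, 73.3 and 66.03 in brown adipose and 69.8 and 76.1 in kidney, with none in muscle or lung. Within 500 bp of the Fabp12 starts, the adipose libraries had no summit and liver had 1, at 5.51 in the fed state.

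**Figure D4:**
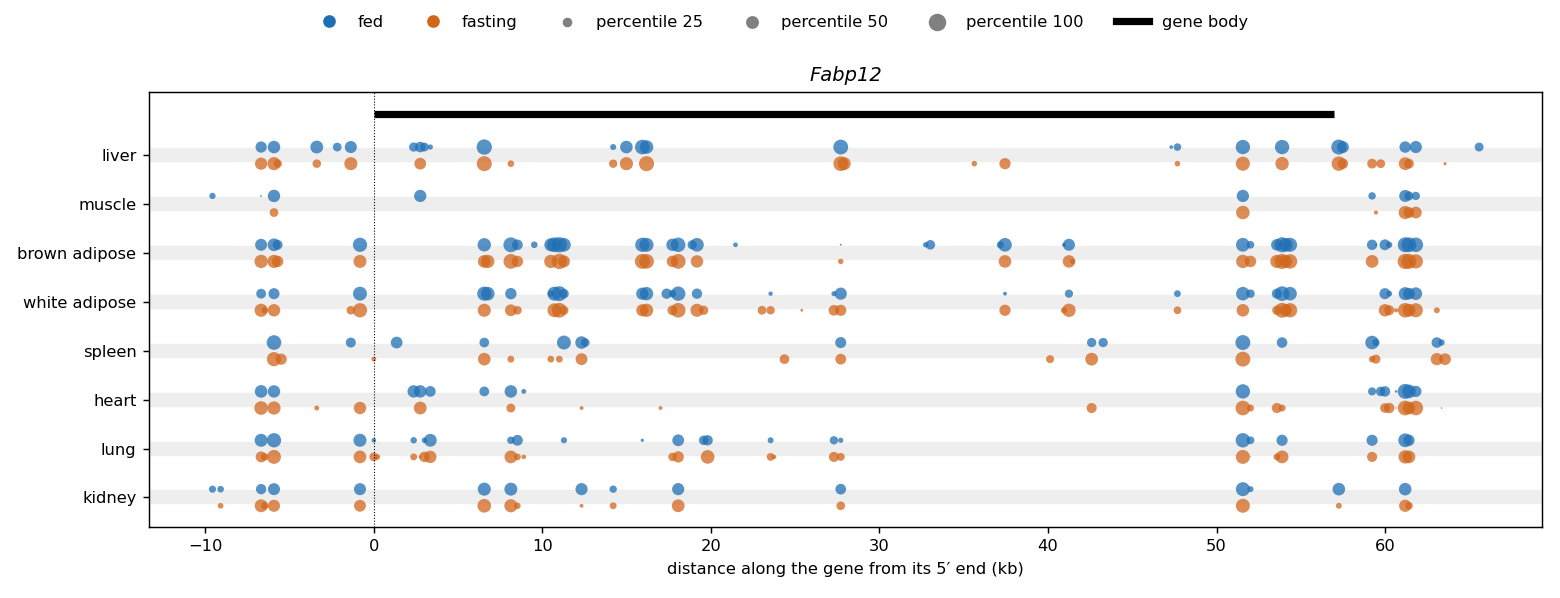
Elements around Fabp12 by distance along the gene from its 5′ end (kb), one row per tissue, with the fed library above and the fasting library below; the area of a point grows with its percentile and the black bar is the gene body. Muscle has few points inside the gene body, and the large point at 11 kb appears in brown and white adipose and, small, in fasting spleen.

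The second test asked whether fasting moved a gene the same way over the 8 tissues, with an exact two-sided sign-flip permutation test whose smallest p is 0.0078. With that floor a gene can pass adjustment only if a large share of all genes reaches it. No gene passed, 0.0% of 19719 at 3 kb and 0.0% of 20740 in the extended body, and 5.25% and 5.5% passed at an unadjusted p under 0.05. At 3 kb none of the 8 members passed even before adjustment. The largest mean rise was that of Fabp3, 7.85 points (exact permutation p = 0.141, BH-adjusted p = 0.959), higher in 6 of 8 tissues. The Fabp12 value fell by 13.8 points on average (exact permutation p = 0.227, BH-adjusted p = 0.98), lower in 5 tissues. In the extended body, Fabp7 rose by 1.96 points in 7 of 8 tissues (exact permutation p = 0.0391, BH-adjusted p = 0.847), through the Smpdl3a start.

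Single tissues held larger differences, which have no test with 1 library per state. A difference of at least 20 points within 3 kb was met by 13.7% of genes in liver, 11.6% in spleen and 11% in heart. It was met by 9.54% for white and 6.69% for brown fat, 4.82% for lung, 4.77% for muscle and 3.14% for kidney. In liver it was met by Fabp3, up 21.7, Fabp4, up 49.5, and Fabp6, which fell by 43.7. In spleen Fabp3 was up 34.2, while Fabp1 fell by 40.96, Fabp6 by 21.5 and Fabp12 by 46.8. Fabp12 fell by 61.7 in muscle and Fabp4 by 43.1 in lung, in each case to no summit, and no member met it in brown adipose, white adipose, heart or kidney. In all 9 of these differences the summits of the 2 states lay more than 200 bp apart, or 1 state had no summit.

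**Figure D5:**
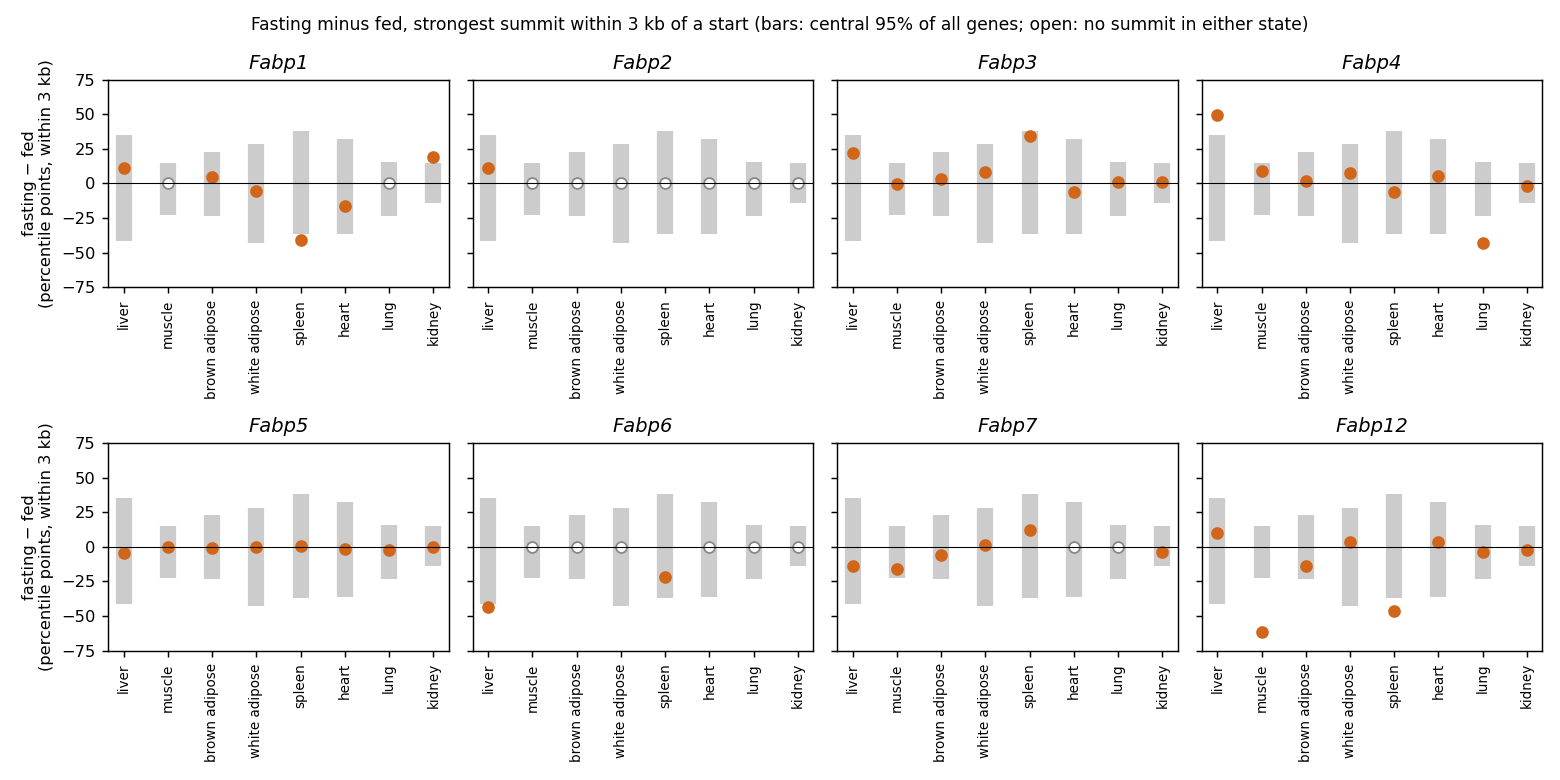
Difference of the 3 kb percentile, fasting minus fed, in each of 8 tissues for the 8 members with a summit; grey bars span the central 95% of all genes in that tissue, and open points mark tissues with no summit in either state. Fabp5 stays near 0 in all 8 tissues, and Fabp4 in liver (49.5) and Fabp12 in muscle (a fall of 61.7) lie outside the bars.

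The neighbours of the family in fat handling were compared as lists. Pmp2, the myelin relative that lies in the same cluster, had a summit within 3 kb only in fed brown adipose, at 23.4. Of 15 genes of fatty acid uptake and activation 10 had a called pattern, among them Cd36, the membrane translocase, which was highest in brown adipose at 96.8 and 98.06, and Slc27a2, an acyl-CoA synthetase and transporter, which was at 99.4 and 99.6 in liver and 95.7 and 97.04 in kidney. Of the 6 fatty acid sensing receptors 3 did, Pparg, Rxrb and Rxrg. The members themselves counted 4 of 8, beside 48.1% of all genes. No gene of the uptake and receptor lists passed the fasting test before adjustment.

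Among the marker lists, a called pattern was found for 4 of 5 adipocyte, 5 of 5 endothelial, 2 of 5 macrophage, 4 of 5 hepatocyte, 5 of 5 muscle and cardiomyocyte, 3 of 5 proximal tubule, 1 of 4 tested enterocyte, 1 of 5 epididymis and 0 of 5 testis germ cell genes. Epididymis markers averaged 41.5 fed and 11.5 fasting over the white adipose libraries, but also 41.1 and 3.78 in spleen and 35.0 and 17.6 in heart. Of these markers, Lcn5 stood at 88.07 fed and 57.42 fasting in white adipose. Adam7 and Crisp1 had a summit there in the fed library alone, at 74.72 and 44.76. Lcn8 and Lcn9 had no summit within 3 kb in either white adipose library. The part of epididymis in the white adipose values of the members was not tested.

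For each member with a summit in at least 8 libraries, the 3 genes over 100 kb away with the most similar values were listed by Pearson's r over the 16 libraries, which share tissues and pools, as a description. Fabp1 was most like Gm11541 (r = 0.972), Klb (0.954), the co-receptor of a fasting hormone in liver and fat, and Taar1 (0.933). Fabp3 was most like Clpb (0.938), a mitochondrial chaperone, Tmem101 (0.915) and 2010109A12Rik (0.914). Fabp4 was most like Idh1 (0.835), which makes NADPH in the cytosol, Pi16 (0.827) and Slc1a4 (0.808). Fabp5 was most like Ccl2 (0.938), Egf (0.937) and Fxyd1 (0.928), and Fabp7 like Prlr (0.912), the prolactin receptor, Mcmdc2 (0.908) and Gm28230 (0.903). For Fabp12 the values were 0.889 for Snapc3 and 0.856 for Ciao1 and Tmem127, but within the fed libraries alone they were 0.18 to 0.367.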

How the data were processed

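The samples were 16 pooled ATAC-seq libraries, grouped by the tissue and treatment in the labels. The authors' processing, as named in labels and methods, ran from trimmed reads through Bowtie2 alignment to GRCm38, removal of duplicates and mitochondrial reads and the Tn5 offset to MACS2 peaks of each library at p under 0.01. Lists were limited in length and blacklisted regions taken out. The deposited fold enrichment is a ratio of summit tags plus 1 over expected tags plus 1. The deposited −log10 p-values and −log10 q-values come from the authors' Poisson test within a library. None is scaled between libraries, so values were ranked within a list. In 8 lists every row had q under 0.01. In every list the weakest row was past the p cutoff of 0.01, with a −log10 p from 2.48 in fasting to 7.11 in fed brown adipose. The limit on length therefore ended every list.

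Every summit was ranked by −log10 p, and a gene took its highest percentile within 3 kb of a GENCODE vM21 start, or in its body extended by 10 kb. Summit tags were solved from fold and p, and 98.25% to 99.99% of rows gave a whole number within 0.001. Elements join summits within 200 bp of the strongest, the named element being the one with the highest mean percentile. Distances are to the nearest annotated start. Tag intervals are exact at 95% and cover counting error only. The exact permutation tests with BH adjustment were checked on simulated data, and their p-values describe spread between these pools alone. All 9 members are named. The members and the gene lists (15 uptake and activation genes, 6 receptors and 9 marker lists of 5 genes) were chosen with earlier results of these data known, and the result of a further list is not reported here. Work was done in Python 3.11.15 (pandas 2.3.3, scipy 1.17.1, numpy 2.4.6, matplotlib 3.10.9), with seed 1 for thinning.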

Additional observations from a re-analysis of the deposited data

Results flagged for a closer look

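With 1 library per state, each pair below was picked because the fasting value was higher than the fed one in one tissue and lower in another, and the difference between the tissues was not tested. Within 3 kb of the start, Fabp1 was higher in fasting kidney by 19.1 points and its spleen value fell by 40.96. Fabp4 was higher in fasting liver by 49.5 and its lung value fell by 43.1. In the extended gene body, Fabp2 was higher in fasting heart by 37.7 and its brown adipose value fell by 20.2. Fabp4 was higher there in liver by 34.5 and its lung value fell by 55.9. Fabp6 was higher in spleen by 41.8 and its white adipose value fell by 43.1, and Fabp9 was higher in heart by 39.7 and its kidney value fell by 62.02. The fasting heart value of Fabp9, 94.51, was also that of Fabp4, whose extended body overlaps it.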

How the results depend on the processing

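The number of genes with a called tissue pattern was 9488 at 3 kb and 10133 in the extended body. It moved by over 1.5 times when tags were thinned to one background level (5697 and 6559), which left the lists at 240591 to 299488 rows, without muscle (5960 and 6310), without spleen (5801 and 6254) and without kidney (5951 and 6590), where fewer tags or fewer tissues were used, and stayed within 1.5 times under the other alternatives. The fasting test called 0 genes under every alternative, with 905 to 1150 at an unadjusted p under 0.05, but its smallest p nearly fixes that count and it says nothing of stability. Among the members, the 3 kb call was kept by Fabp3 in 14 of 16 alternatives (lost by fold and at 500 bp), Fabp7 in 15 (lost at q under 1e-06), Fabp1 in 8 and Fabp4 in 8. At 500 bp and 1 kb Fabp1 could not pass, being open in liver and fasting kidney alone. Fabp5 gained a call at 1 kb and 500 bp (exact permutation, BH-adjusted p = 0.0317 and 0.0315), and Fabp12 at 1 kb and with 1 row per region (0.0292 and 0.0418). In the extended body Fabp3 kept its call in all 15 alternatives, Fabp1 and Fabp12 in 14, Fabp4 in 7 and Fabp2 in 6, and Fabp7 gained one by fold (0.0208). No paired analysis was possible because each tissue and state has 1 library, apart from the pairing of states within a tissue that both tests use. Depth limits the weakest members most: the liver summits of Fabp4 and Fabp6 rest on few tags at a background of 2.8.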
